A study of Saccharomyces cerevisiae with 9 samples.

Results

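The comparison described here sets 3 microarrays of the yeast Saccharomyces cerevisiae grown with 60 g/L succinic acid against 3 arrays of yeast grown with 20 g/L. These 6 of the 9 arrays in the series were chosen by their labelled dose and paired by strain, with 1 array for each of the strains NBRC1958, NBRC2018 and KF7 at each dose. The other 3 arrays hold the same strains without added succinic acid (0 g/L). All cultures were grown for 6 hours in YPD, a rich medium of yeast extract, peptone and glucose, at 35 °C with shaking at 200 rpm, and total RNA was labelled as biotinylated cRNA. The study concerned the stress response of yeast to succinic acid, and this step asks what the higher dose changed beyond the lower one. The labels give the strains by name only, and the sources used here do not give the pH of the media.

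Succinic acid, an intermediate of the citric acid cycle, is a weak acid with 2 acid groups. Undissociated weak acids can cross the plasma membrane and release protons in the cytosol, and yeast answers with proton pumping, export of anions, changes of the cell wall and stress gene programmes. The heat shock factor Hsf1 switches on genes of chaperones, which refold or sort misfolded proteins, and Msn2 and Msn4 switch on a general stress programme. Genes of thiamine synthesis are transcribed when thiamine pyrophosphate is scarce, and purine genes when adenine nucleotides are scarce.

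The values are probe set signals in arbitrary units, and single values are given in the order NBRC1958, NBRC2018 and KF7. Differences are on the scale of log2(signal + 16), which understates the change of genes with low signals. A gene passed the test where its adjusted p (limma, Benjamini-Hochberg over all 4359 genes tested) was under 0.05. The fit had strain and dose as factors over all 9 arrays, so its error holds array error and any disagreement between strains in their response. Each array had its own strain and dose, and no strain and dose had a replicate culture, so the p-values speak for the spread between these arrays only. The number of arrays limits the precision, because each strain had 1 array per dose.

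The arrays had similar signal levels, with medians over yeast genes of 294 to 311, and 96.7% to 97.5% of the 5449 genes exceeded the 95th percentile of probe sets for another organism. Among the 6 arrays, 53.6% of the sum of squares lay between strains and 34.4% between doses. Control probe sets moved with dose. For 8 control genes with probe sets at both ends of the transcript, the mean log2 ratio of 3' to 5' signal was 1.04, 1.16 and 1.05 at 60 g/L, against 0.88, 0.81 and 0.87 at 20 g/L. This ratio, a measure of RNA length and labelling, was higher at 60 than at 20 g/L in all 3 strains for 7 of the 8 genes. The 24 probe sets for Bacillus subtilis transcripts, which are commonly added to RNA as labelling controls, had mean log2 values of 7.12, 7.14 and 7.22 at 60 g/L, against 7.13, 6.29 and 6.74 at 20 g/L. Of these the NBRC2018 and KF7 arrays were higher at 60 g/L, and the NBRC1958 arrays were alike.

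**Figure D1:**
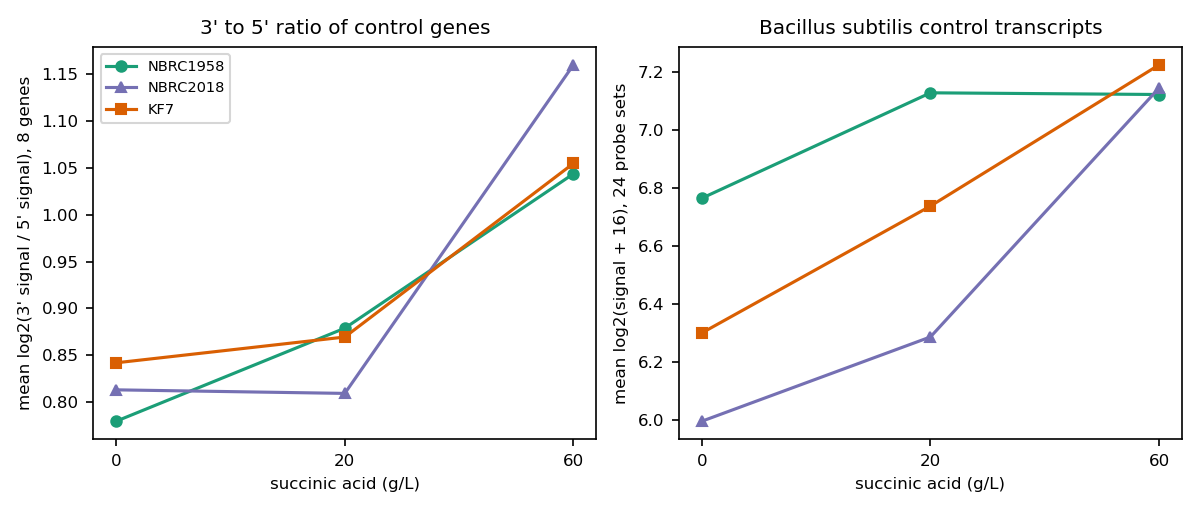
Control probe sets on the 9 arrays, with succinic acid (g/L) on the horizontal axis and 1 line per strain. The left panel shows the mean log2 ratio of 3' to 5' signal over 8 control genes, which was 1.04 to 1.16 on the 60 g/L arrays and 0.81 to 0.88 on the 20 g/L arrays. The right panel shows the mean log2(signal + 16) of 24 Bacillus subtilis probe sets.

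At 60 against 20 g/L, 695 of 4359 genes (15.9%) passed the test, of which 252 (5.78%) were higher and 443 (10.2%) lower. With quantile normalization the split was 304 higher and 341 lower. The genes that rose moved further than those that fell, with a median log2 difference of 0.70 among the higher and -0.50 among the lower, beside -0.06 over all tested genes. At least 2-fold changes were seen for 66 higher and 27 lower genes, and 31 and 8 genes reached 2-fold in every strain. Every one of the 695 had the same sign in all 3 strains, which is no separate support because the test counts disagreement as error. All 60 g/L arrays lay above all 20 g/L arrays for 150 of the 252 risen genes, and below them for 319 of the 443 fallen genes. The same held for 6.88% and 15.3% of all genes tested. Many calls were lost when a single array was left out, most of all one at 20 g/L. Without the 20 g/L array of NBRC1958, NBRC2018 or KF7, 128, 165 and 229 genes passed. Without the 60 g/L array of NBRC1958 or NBRC2018 the counts were 294 and 327, and without that of KF7 714. With the mean 3' to 5' ratio as a covariate, a fit added after the data were seen, no gene passed and 287 genes had an unadjusted p under 0.05 (limma). By the design alone, before the spread of each gene enters, the standard error was then 2.81 times as large, since the ratio moved with dose. Dose and ratio cannot be told apart on these arrays.

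Among the largest rises were genes of protein quality control. BTN2 (YGR142W), which sorts misfolded proteins into deposits, had signals of 8000, 4740 and 6248 at 60 g/L, against 2962, 438 and 483 at 20 g/L. All 60 g/L arrays lay above all 20 g/L arrays, and NBRC1958 was already high at 20 g/L. BTN2 rose by 2.82 on the log2 scale (SE 0.37, adjusted p = 0.0058). Its relative CUR1 (YPR158W) had 1277, 324 and 330 at 60 g/L, against 171, 122 and 55.7 at 20 g/L, and rose by 2.12. The J-domain cochaperone gene APJ1 (YNL077W) had 3781, 1086 and 2014 at 60 g/L, against 811, 164 and 213 at 20 g/L. APJ1 rose by 2.20, 2.62 and 3.15 in the 3 strains, a narrow spread for so large a rise (difference 2.66, SE 0.16, adjusted p = 0.00044). SSA4 (YER103W), a stress-induced cytosolic Hsp70, had 5152, 1277 and 3516 at 60 g/L, against 1159, 374 and 292 at 20 g/L, and rose by 2.46.

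Other large rises were in membrane transport and metabolism. FDH1 (YOR388C), a formate dehydrogenase, had signals of 2771, 492 and 1302 at 60 g/L, against 794, 42.1 and 71.1 at 20 g/L. The NBRC1958 array at 20 g/L exceeded the 60 g/L array of NBRC2018, so the groups overlapped, although FDH1 rose within each strain (difference 2.94, SE 0.43, adjusted p = 0.0076). STL1 (YDR536W), a glycerol importer, overlapped in the same way, with 1560, 377 and 862 at 60 g/L, against 722, 58.6 and 85.6 at 20 g/L, and rose by 2.20. HXT5 (YHR096C), a hexose transporter gene of slow growth and starvation, had 690, 243 and 274 at 60 g/L, against 119, 51.1 and 39.5 at 20 g/L. HXT5 rose by 2.24 (SE 0.14, adjusted p = 0.00044), without overlap and by at least 1.95 in every strain. PHM8 (YER037W), a phosphatase gene of phosphate starvation, rose by 2.53, and GRE2 (YOL151W), a methylglyoxal reductase, by 2.41. OPI10 (YOL032W), whose relative in humans imports Hsp70 into the nucleus, rose by 2.16.

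Both genes without an assigned function among the largest rises had low signals at 20 g/L in at least 1 strain. YHR033W had 3603, 1284 and 1519 at 60 g/L, against 1119, 132 and 96.5 at 20 g/L, and rose by 2.86 (SE 0.36, adjusted p = 0.0058). YGR035C had the largest difference of all genes past the test, 3.25 (SE 0.76, adjusted p = 0.028), with signals of 1324, 1030 and 181 at 60 g/L, against 60.0, 17.2 and 112 at 20 g/L. Nearly all of it came from NBRC1958 (4.14) and NBRC2018 (4.98), beside 0.62 in KF7. YGR035C did not pass without the 60 or 20 g/L array of NBRC1958 or of NBRC2018 (adjusted p = 0.087 to 0.12), and its difference was -0.32 with the 3' to 5' ratio as a covariate. The other 11 of the 12 largest rises passed with any 1 of the 9 arrays left out.

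**Figure D2:**
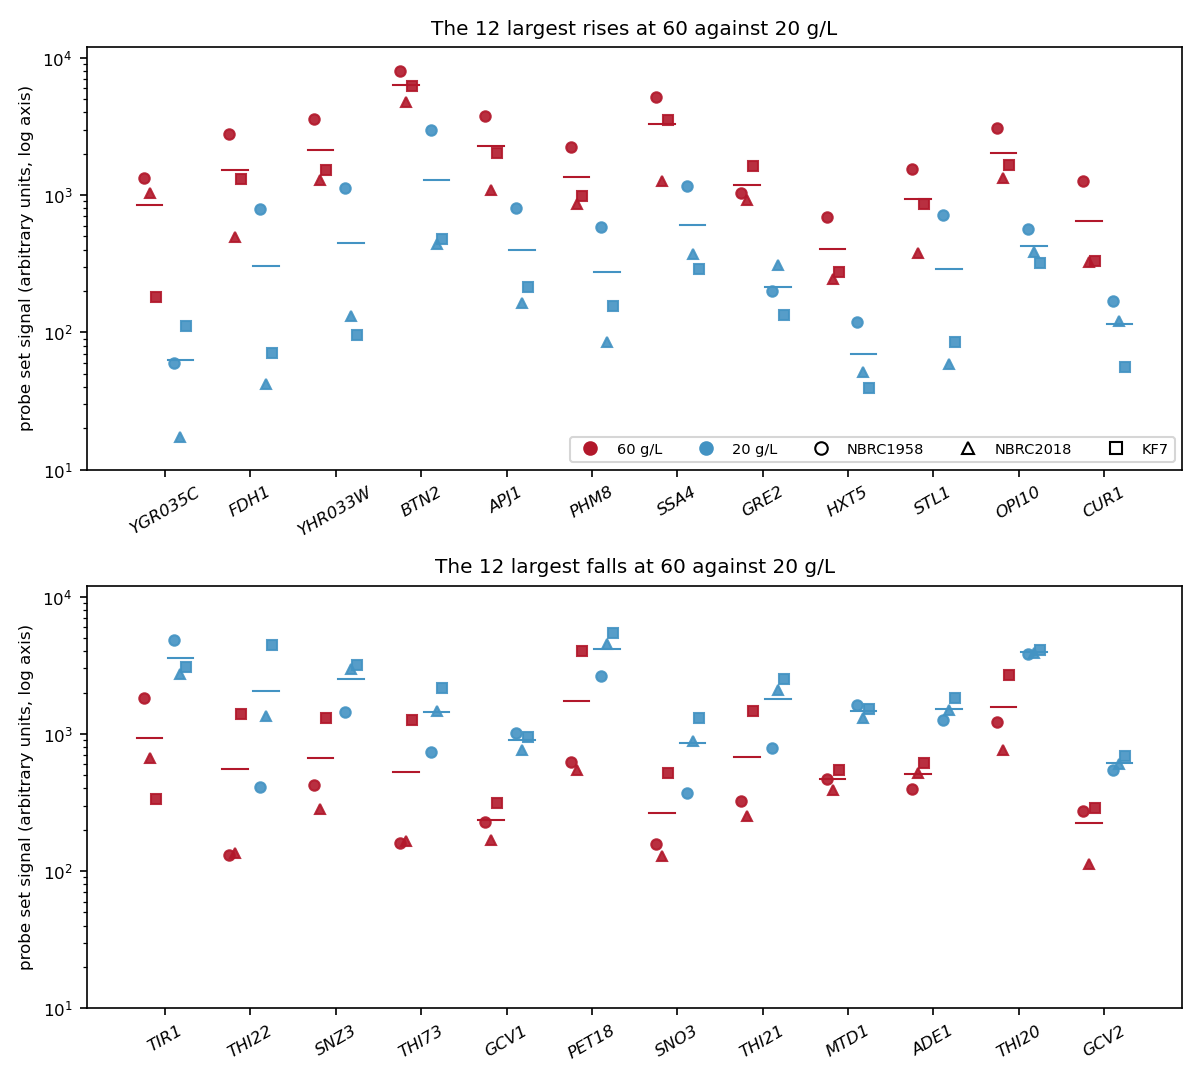
Probe set signal (arbitrary units, log axis) of the 12 genes with the largest rises (top) and the 12 with the largest falls (bottom) at 60 against 20 g/L. Each point is 1 array, its shape the strain and its colour the dose, and horizontal bars are means of 3 arrays. In the top panel the 20 g/L circle of NBRC1958 often stands above the other 20 g/L points, and in the bottom panel the KF7 squares at 60 g/L often stand above the other 60 g/L points.

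Across the list of Hsf1 targets, 16 of 25 tested genes rose and none fell, with a list median of 0.87. At least 11 rose with any 1 array left out. The strain medians were 1.08, 0.59 and 1.07. Members below the leading 4 were named after their values were seen. HSP82, the inducible Hsp90, rose by 1.85, HSP78, a mitochondrial disaggregase, by 1.76, FES1, a nucleotide exchange factor of Hsp70, by 1.70, and STI1, which links Hsp70 to Hsp90, by 1.29. HSP104, the cytosolic disaggregase, had 4376, 2765 and 3101 at 60 g/L, against 2564, 1403 and 1670 at 20 g/L, and rose by 0.87 (SE 0.12, adjusted p = 0.0067). None of these 5 genes lost its call when any 1 array was left out. The small heat shock gene HSP26 did not follow. It had 2342, 2603 and 3916 at 60 g/L, against 670, 5976 and 1480 at 20 g/L, higher in NBRC1958 and KF7 and lower in NBRC2018 (difference 0.66, adjusted p = 0.36). Without the 60 g/L array of NBRC2018 its difference was 1.42 (adjusted p = 0.025). HSF1 itself had a difference of 0.23 (adjusted p = 0.090).

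Of 25 tested targets of Msn2 and Msn4, 8 rose (32.0%, beside 5.78% of all genes) and none fell. The median was 0.51, with strain medians of 0.11, 0.25 and 0.69. Only 2, 4 and 1 rose without the 20 g/L array of NBRC1958, NBRC2018 or KF7, and 4 and 1 without the 60 g/L array of NBRC1958 or NBRC2018. SIP18 (YMR175W), a gene of desiccation tolerance, had 666, 297 and 613 at 60 g/L, against 467, 70.7 and 146 at 20 g/L, and rose by 1.44. TMA10 rose by 1.09 and SOL4, a phosphogluconolactonase gene, by 1.02. HSP12, a membrane stress protein, had signals of 6919, 4617 and 5790 at 60 g/L, against 6200, 2285 and 3621 at 20 g/L. Its levels were high at both doses and the difference of 0.61 did not pass (adjusted p = 0.17). SIP18 did not pass without the 60 or 20 g/L array of NBRC2018 or the 20 g/L array of KF7 (adjusted p = 0.059, 0.077 and 0.071), and TMA10 and SOL4 did not without the 20 g/L array of NBRC1958 (0.081 and 0.073) or KF7 (0.062 and 0.055) or the 60 g/L array of NBRC2018 (0.051 and 0.056), nor TMA10 without the 60 g/L array of NBRC1958 (0.0505). Of the regulators, MSN4 fell by 0.72 (247, 213 and 245 at 60 g/L, against 429, 449 and 322 at 20 g/L), and MSN2 had a difference of 0.42 (adjusted p = 0.076). MSN4 did not pass without the 60 or 20 g/L array of NBRC1958 (adjusted p = 0.051 and 0.072) or of NBRC2018 (0.053 and 0.072). None of 19 trehalose and glycogen genes passed, with NTH1, a trehalase gene, at 0.37 (adjusted p = 0.068). Of 22 redox genes 2 rose (9.09%) and 1 fell (4.55%), beside 5.78% and 10.2% of all genes. GRE2 and the glutathione peroxidase gene GPX2 (0.85) rose, and the glutathione synthetase gene GSH2 fell by 0.35. The GSH2 call was lost without any 1 of the 9 arrays (adjusted p = 0.056 to 0.17) and with either other scaling, and its difference was 0.01 with the 3' to 5' ratio as a covariate.

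**Figure D3:**
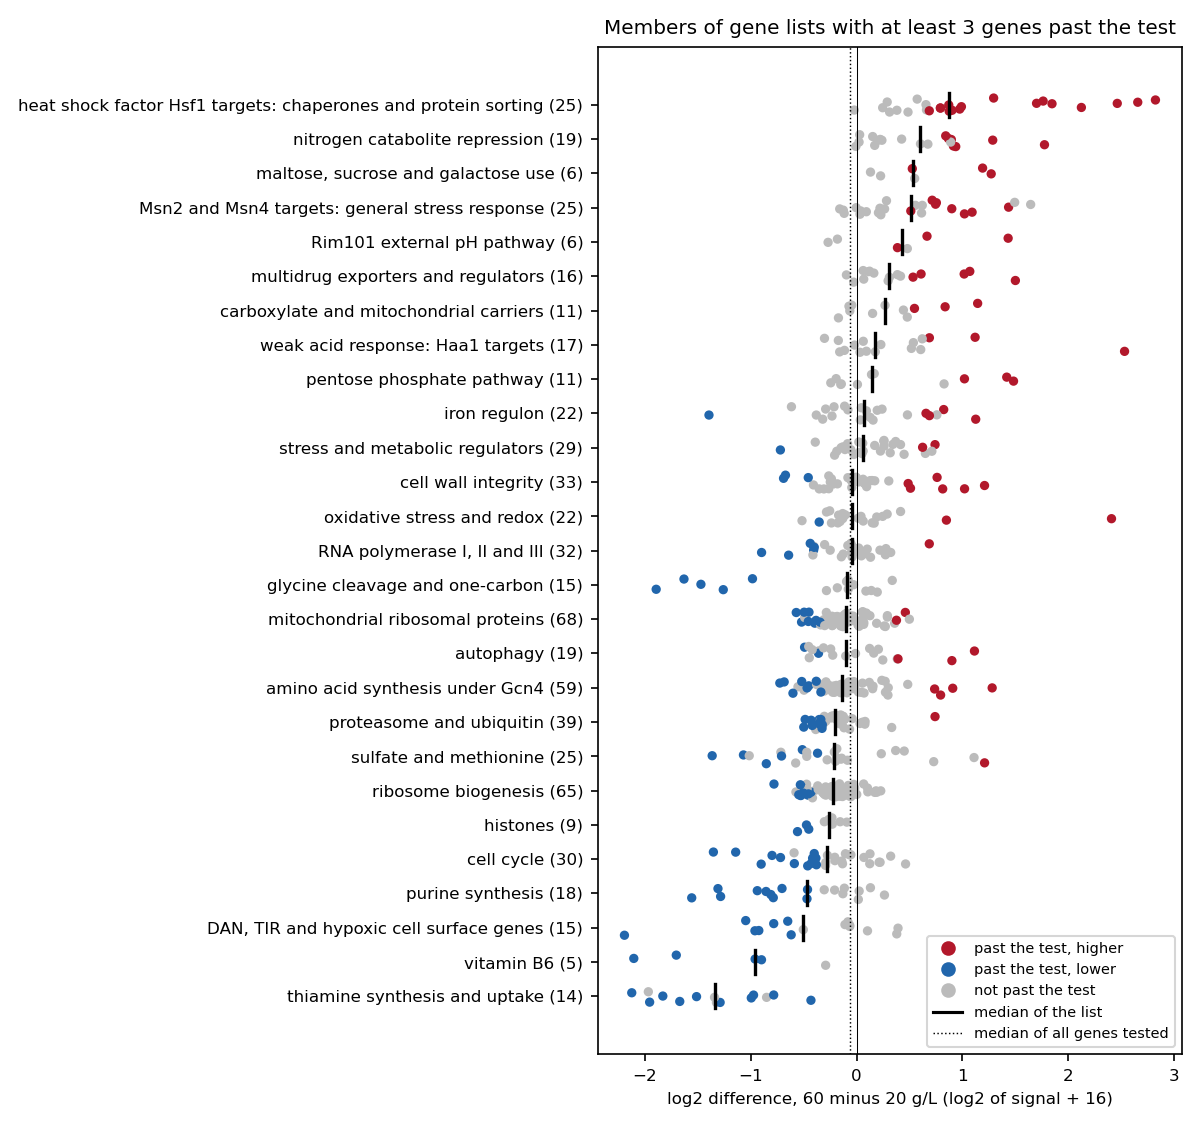
Log2 differences at 60 minus 20 g/L of the tested members of each gene list with at least 3 genes past the test, the number tested in parentheses. Red points rose, blue points fell and grey points did not pass, the thick bar is the list median and the dotted line the median of all genes tested (-0.06). Of the lists drawn, that of Hsf1 targets has the highest median (0.87) and the thiamine list the lowest (-1.33).

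Some exporters rose. Of 16 tested multidrug exporters and their regulators, 5 rose (31.25%, beside 5.78% of all genes) and none fell. TPO4 (YOR273C), a polyamine exporter, had 1992, 686 and 777 at 60 g/L, against 470, 261 and 351 at 20 g/L, and rose by 1.50 (SE 0.22, adjusted p = 0.0076) without overlap. QDR3, an exporter of polyamines and drugs, rose by 0.61 and kept its call, as TPO4 did, with any 1 array left out. The drug pumps PDR5 (1.07) and SNQ2 (1.02) rose as well. PDR5 did not pass without the 20 g/L array of NBRC1958 (adjusted p = 0.13), NBRC2018 (0.098) or KF7 (0.061) or the 60 g/L array of NBRC2018 (0.061), and SNQ2 did not without the 20 g/L array of NBRC1958 (0.073). The list count was 2 without the 20 g/L array of NBRC1958 and 3 without the 20 g/L array of KF7 or either of these NBRC2018 arrays. AQR1 (YNL065W), an exporter linked to resistance to short-chain acids, had 880, 1629 and 630 at 60 g/L, against 711, 1087 and 389 at 20 g/L. Each strain was higher at 60 g/L, and the difference of 0.52 did not pass (adjusted p = 0.055), although it did with quantile normalization (0.043). Between 20 and 0 g/L AQR1 had a difference of 1.80.

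Haa1 is a transcription factor of weak acid tolerance. Of its 17 tested targets 3 rose (17.6%, beside 5.78% of all genes), and 5 with quantile normalization. The 3 were PHM8, the cell wall gene SPI1 (1.12) and the vacuolar metal transporter gene COT1 (0.69). Without the 20 g/L array of NBRC1958 1 of them passed, as SPI1 had an adjusted p of 0.053 and COT1 one of 0.17, and COT1 also lost its call without 7 other single arrays. HAA1 had 228, 253 and 262 at 60 g/L, against 306, 266 and 280 at 20 g/L, and its difference of -0.19 did not pass. The carboxylate pump gene PDR12 (YPL058C) had signals of 848, 832 and 676 at 60 g/L, against 408, 471 and 687 at 20 g/L. PDR12 was higher at 60 g/L in NBRC1958 and NBRC2018 and not in KF7 (difference 0.60, adjusted p = 0.066), and without the 60 g/L array of KF7 it passed, at 0.87 (adjusted p = 0.011). Its regulator gene WAR1 had a difference of 0.26 (adjusted p = 0.11). None of 19 tested proton pump genes passed, the list median being -0.13. PMA1, the plasma membrane proton pump, had 2228, 2275 and 2057 at 60 g/L, against 2455, 2350 and 2128 at 20 g/L, a difference of -0.08 (SE 0.08), and its relative PMA2 lay below the level filter.

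Of 6 tested genes of the Rim101 pathway, which senses external pH, 3 rose. RIM8, an arrestin of the pathway, had 685, 446 and 553 at 60 g/L, against 386, 300 and 348 at 20 g/L, and rose by 0.67 without overlap. The sodium pump gene ENA5, read by a probe set shared with its near-identical relatives, rose by 1.43, and the repressor gene NRG1 by 0.39. None of the 3 passed without the 20 g/L array of NBRC1958 (adjusted p = 0.059, 0.071 and 0.18), and without the 20 g/L array of NBRC2018 RIM8 alone did. NRG1 was lost without 6 other single arrays as well. At 60 against 0 g/L ENA5 passed (1.53, adjusted p = 0.0073), and RIM8 (0.16, 0.28) and NRG1 (0.29, 0.063) did not. RIM8 had 569, 375 and 564 at 0 g/L. Of 18 tested glycerol and osmotic stress genes STL1 alone rose (2 genes without the 20 g/L array of NBRC2018), and GPD1, of glycerol synthesis, had a difference of 0.26 (adjusted p = 0.12).

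Genes of succinate metabolism itself moved little. None of 9 tested genes of succinate dehydrogenase, which oxidizes succinate to fumarate, passed. SDH1 had 1176, 919 and 984 at 60 g/L, against 1296, 811 and 937 at 20 g/L, a difference of 0.04 (SE 0.18), and SDH2 one of -0.12 (SE 0.14). The assembly factor gene SDH6 (0.54, adjusted p = 0.051) and the membrane subunit gene SDH3 (0.39, adjusted p = 0.058) came closest, and both passed with quantile normalization (0.040 and 0.047), as SDH6 did with median centring (0.041). None of 18 other citric acid cycle genes passed, with FUM1, fumarase, at 0.07. Among 11 tested carboxylate and mitochondrial carriers 3 rose (27.3%, beside 5.78% of all genes). MPC3 (YGR243W), a mitochondrial pyruvate carrier subunit of respiratory growth, had 5517, 4162 and 5840 at 60 g/L, against 3812, 1226 and 2625 at 20 g/L. MPC3 rose by 1.14, its fellow subunit gene MPC2 by 0.55 and the oxodicarboxylate carrier gene ODC1 by 0.84. None of the 3 overlapped between doses, and all 60 g/L arrays lay above all 20 g/L arrays for 6.88% of all genes tested. ODC1 passed with any 1 array left out. MPC2 and MPC3 did not pass without the 20 g/L array of NBRC1958 (adjusted p = 0.060 and 0.096) or of NBRC2018 (0.055 and 0.12). The MPC3 call was lost without 4 further arrays, and its difference was -0.21 with the 3' to 5' ratio as a covariate. The dicarboxylate carrier gene DIC1 (-0.17) and the plasma membrane carboxylate importer gene JEN1 (0.48, SE 0.56) did not pass.

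PCK1 (YKR097W), the gluconeogenic phosphoenolpyruvate carboxykinase, had 1589, 776 and 1077 at 60 g/L, against 714, 154 and 541 at 20 g/L, and rose by 1.44 (adjusted p = 0.014) as the only called gene of 11 in the glyoxylate cycle and gluconeogenesis. PCK1 did not pass without the 20 g/L array of NBRC1958 (adjusted p = 0.060) or NBRC2018 (0.063), and 2 genes of the list rose without the 60 or 0 g/L array of KF7. Among 6 tested genes for maltose and related sugars 3 rose, namely IMA1, an isomaltase gene (1.27), the maltase gene MAL32 (1.19, a shared probe set) and the maltose permease gene MAL31 (0.53). None of these passed without the 20 g/L array of NBRC1958 (adjusted p = 0.14, 0.084 and 0.097) or KF7 (0.071, 0.070 and 0.061) or the 60 g/L array of NBRC2018 (0.11, 0.059 and 0.055), and IMA1 did not without 3 further arrays. Minor isoforms of the pentose phosphate pathway rose, the transaldolase NQM1 by 1.42 and the transketolase TKL2 by 1.48. NQM1 had 1130, 198 and 538 at 60 g/L, against 549, 79.0 and 117 at 20 g/L, higher in each strain though the groups overlapped, and it passed with any 1 array left out. TKL2 did not pass without the 20 g/L array of NBRC1958 (adjusted p = 0.052). Of 22 tested genes of glycolysis and fermentation 2 fell (9.09%), near the 10.2% of all genes. PDC5, a minor pyruvate decarboxylase that thiamine represses, fell by 1.27, and ADH3, a mitochondrial alcohol dehydrogenase, by 0.49. PDC5 passed without 3 of the 9 arrays only (adjusted p up to 0.15), and ADH3 did not without the 20 g/L array of NBRC1958 (0.073) or NBRC2018 (0.067).

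Of 15 tested genes of glycine cleavage and the folate-linked transfer of single carbons 5 fell (33.3%, beside 10.2% of all genes) and none rose. The list median of -0.09 was close to that of all genes (-0.06), with strain medians of -0.16, -0.01 and -0.11. The glycine cleavage complex splits glycine to supply carbon units for purines and methionine. GCV1 (YDR019C), a subunit of it, had 229, 167 and 315 at 60 g/L, against 1009, 757 and 945 at 20 g/L. GCV1 fell by 1.89 (SE 0.13, adjusted p = 0.00049), and the highest value at 60 g/L was under the lowest at 20 g/L. GCV2 (YMR189W) of the same complex had 275, 113 and 289 at 60 g/L, against 546, 599 and 686 at 20 g/L, and fell by 1.47. MTD1 (YKR080W), a folate dehydrogenase, had 468, 391 and 549 at 60 g/L, against 1620, 1305 and 1505 at 20 g/L, and fell by 1.63. SHM2, the cytosolic serine hydroxymethyltransferase, fell by 1.26 in the same pattern (1194, 1279 and 1454 at 60 g/L, against 2560, 3277 and 3699 at 20 g/L). Between 4 and 6 genes of the list fell with any 1 array left out. GCV1, MTD1 and SHM2 kept their calls throughout, and GCV2 had an adjusted p of 0.053 without the 20 g/L array of NBRC2018 and a difference of 0.13 with the 3' to 5' ratio as a covariate.

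Purine synthesis genes fell alongside. Of 18 tested, 10 fell (55.6%, beside 10.2% of all genes) and none rose. The list median was -0.47, with strain medians of -0.35, -0.40 and -0.56. With any 1 array left out 7 to 10 fell. ADE1 (YAR015W), which adds aspartate to the purine precursor, had 395, 522 and 611 at 60 g/L, against 1261, 1495 and 1811 at 20 g/L, and fell by 1.56 (SE 0.10, adjusted p = 0.00047). ADE4, the amidotransferase that opens the pathway, had 329, 521 and 317 at 60 g/L, against 934, 996 and 908 at 20 g/L, and fell by 1.28. ADE17, which closes the ring, fell by 0.94. For all 3 the 60 g/L arrays lay below all 20 g/L arrays, as for 15.3% of all genes tested, and their calls held with any 1 array left out. IMD2, an IMP dehydrogenase gene read by a shared probe set, fell by 1.31 and did not pass without the 20 g/L array of NBRC1958, NBRC2018 or KF7 (adjusted p = 0.078, 0.060 and 0.061).

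**Figure D4:**
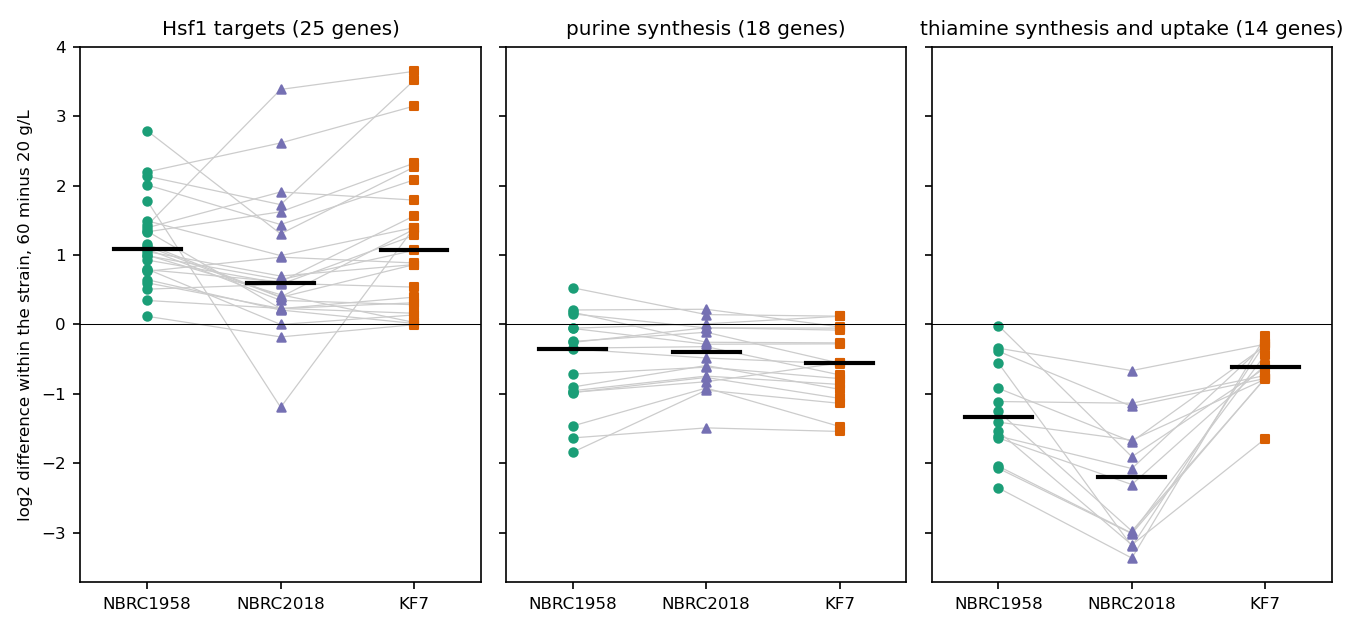
Log2 differences at 60 minus 20 g/L within each strain for the tested members of 3 gene lists. Each point is 1 gene, thin lines join a gene across strains and thick bars are medians. The purine list falls to similar medians in the 3 strains (-0.35, -0.40 and -0.56), and the thiamine list differs more (-1.33, -2.19 and -0.61).

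Thiamine genes had the lowest list median of those with 5 or more tested members. Of 14 tested, 10 fell (71.4%, beside 10.2% of all genes) and none rose. The median was -1.33, with strain medians of -1.33 in NBRC1958, -2.19 in NBRC2018 and -0.61 in KF7. THI20 (YOL055C), a kinase of thiamine synthesis, had 1216, 767 and 2704 at 60 g/L, against 3812, 3861 and 4071 at 20 g/L, and fell by 1.51 (SE 0.30, adjusted p = 0.019). THI22 (YPR121W), a relative of THI20, had 130, 136 and 1398 at 60 g/L, against 410, 1356 and 4409 at 20 g/L, and fell by 2.12. PET18 had 623, 545 and 4010 at 60 g/L, against 2619, 4496 and 5423 at 20 g/L, and fell by 1.83. In each of these genes KF7 was the highest array at 60 g/L, and for THI22 and PET18 it overlapped the 20 g/L arrays of other strains. THI4, which makes the thiazole part of thiamine, had 483, 665 and 6336 at 60 g/L, against 2542, 7018 and 7140 at 20 g/L. The KF7 array stayed near its 20 g/L level, and the difference of -1.97 did not pass (adjusted p = 0.062). Without the 60 g/L array of KF7 it was -2.95 (adjusted p = 0.0026).

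The thiamine calls were not stable. Without the 20 g/L array of NBRC1958, NBRC2018 or KF7, 4, 2 and 3 thiamine genes fell, and 4 and 2 without the 60 g/L array of NBRC1958 or NBRC2018. THI20 had an adjusted p of up to 0.083, THI22 of up to 0.072, PET18 of up to 0.13, THI73 (-1.95) of up to 0.11 and THI21 (-1.67) of up to 0.15, each the highest over the arrays left out and reached without the 20 g/L array of NBRC2018. With the 3' to 5' ratio as a covariate the differences of THI20, THI21, THI22, THI73 and PET18 were 0.15, 1.27, 0.46, 0.54 and 0.68, none past the test. Vitamin B6 genes fell as well, 4 of 5 tested, with strain medians of -0.77, -1.14 and -1.19. Unlike in the thiamine list, KF7 did not have the smallest median fall, although SNZ3 fell least in KF7 (-1.72, -3.30 and -1.28). TPN1, the pyridoxine importer, had 278, 364 and 485 at 60 g/L, against 485, 821 and 961 at 20 g/L, and fell by 0.96, with its call kept without any 1 array. SNZ3 (-2.10) and SNO3 (-1.70), which lie side by side with thiamine-controlled genes and share probe sets with their near-identical relatives, did not pass without the 20 g/L array of NBRC2018 (adjusted p = 0.065 and 0.075) or KF7 (0.053 and 0.068) or the 60 g/L array of NBRC1958 (0.0503 and 0.051). SNO3 was also lost without the 60 g/L array of NBRC2018 (0.053). With the covariate SNZ3 and SNO3 were at 0.53 and 0.50. The list count was 2, 1 and 2 without the 60 g/L array of NBRC1958 and the 20 g/L arrays of NBRC2018 and KF7.

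Of 59 tested amino acid synthesis genes under Gcn4, 4 rose (6.78%) and 8 fell (13.6%), near the 5.78% and 10.2% of all genes. No more than 2 rose and 4 fell without the 20 g/L array of any strain or the 60 g/L array of NBRC1958 or NBRC2018. ARG3 rose by 1.28, SER3, of serine synthesis, by 0.91, CPA1 by 0.79 and LEU1 by 0.74. SER3 had 2862, 3190 and 1963 at 60 g/L, against 1817, 1550 and 945 at 20 g/L, without overlap. The 4 calls were lost without the 20 g/L array of NBRC1958, NBRC2018 or KF7 (adjusted p = 0.058 to 0.15), and LEU1 was at -0.22 with the 3' to 5' ratio as a covariate. At 60 against 0 g/L SER3 passed (1.16, adjusted p = 0.0050), and ARG3 (0.52, 0.27), CPA1 (0.58, 0.060) and LEU1 (0.31, 0.27) did not. GCN4 itself was level, with 3392, 3525 and 3331 at 60 g/L, against 3392, 3729 and 3319 at 20 g/L (difference -0.03, SE 0.09). Of 25 tested sulfate and methionine genes, 6 fell and 1 rose. MET6, methionine synthase, had 472, 469 and 1207 at 60 g/L, against 934, 1363 and 2017 at 20 g/L, and fell by 1.07, MET3, the first enzyme of sulfate assimilation, fell by 1.36 and MET22, a nucleotidase of that pathway, by 0.85. MET28, which regulates these genes, rose by 1.21 (266, 294 and 272 at 60 g/L, against 152, 89.9 and 98.2 at 20 g/L). MET22 and MET28 passed with any 1 array left out. MET3 and MET6 did not without the 60 g/L array of NBRC1958 (adjusted p = 0.056 and 0.0665), the 60 g/L array of NBRC2018 (0.079 and 0.072) or 20 g/L (0.073 and 0.090) or the 20 g/L array of KF7 (0.077 and 0.070), and were at 0.33 and 0.04 with the covariate. With median centring 3 genes of the list fell. Without each of these 4 arrays 1 or 2 genes of the list fell, and 3 without the 0 g/L array of KF7.

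Genes for poor nitrogen sources rose. Of 19 tested genes under nitrogen catabolite repression, 7 rose (36.8%, beside 5.78% of all genes) and none fell. The median was 0.60, with strain medians of 0.52, 0.04 and 0.78. CAR1 (YPL111W), arginase, had 6609, 4034 and 5627 at 60 g/L, against 2807, 1331 and 2730 at 20 g/L, and rose by 1.29 (SE 0.15, adjusted p = 0.0043) without overlap and with any 1 array left out. PUT1, proline oxidase, had 740, 179 and 531 at 60 g/L, against 123, 82.6 and 131 at 20 g/L, and rose by 1.77. The amino acid permease GAP1 rose by 0.91 and the malate synthase DAL7 by 0.94, with little change in NBRC2018, where GAP1 had 97.0 at 60 g/L, against 80.5 at 20 g/L. PUT1, GAP1 and DAL7 did not pass without the 20 g/L array of NBRC1958 (adjusted p = 0.086, 0.12 and 0.16) or KF7 (0.077, 0.14 and 0.13), and GAP1 and DAL7 did not without 5 further arrays each. The list count was 1, 2 and 1 without the 20 g/L array of NBRC1958, NBRC2018 or KF7, and 3 or 4 without the other NBRC1958 arrays or the 60 g/L array of KF7. At 60 against 0 g/L CAR1 (1.54, adjusted p = 0.0012) and GAP1 (0.80, 0.048) passed, and PUT1 (0.49, 0.35) and DAL7 (0.66, 0.085) did not.

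Metal and cell surface genes changed in both directions too. FET4, a low-affinity iron transporter, had 618, 403 and 160 at 60 g/L, against 1037, 1107 and 702 at 20 g/L, and fell by 1.39 (SE 0.21, adjusted p = 0.0091). Among the 22 tested iron genes FET4 alone fell (4.55%, beside 10.2% of all genes) and 4 rose (18.2%, beside 5.78%). FIT1, a wall protein that holds iron carriers, rose by 1.13 and the ferric reductase FRE1 by 0.82. None of the 4 passed without the 20 g/L array of NBRC1958 or NBRC2018 (adjusted p = 0.061 to 0.17 for FIT1, FRE1 and COT1), and 1 or 2 did without 4 further arrays. Without the 60 g/L array of NBRC1958 or KF7, 2 and 4 iron genes fell. TIR1 (YER011W), a mannoprotein of the wall made under cold and low oxygen, had the largest fall past the test. It had 1811, 666 and 333 at 60 g/L, against 4837, 2732 and 3087 at 20 g/L, and fell by 2.19 (SE 0.28, adjusted p = 0.0058), with its call kept without any 1 array. Of 15 tested genes of the DAN and TIR list 7 fell (46.7%, beside 10.2% of all genes) and none rose. TIR2 fell by 1.05, TIR3 by 0.96 and TIR4 by 0.92. The count was 1, 4 and 3 without the 20 g/L array of NBRC1958, NBRC2018 or KF7 and 4 without the 60 g/L array of NBRC1958. TIR2, TIR3 and TIR4 did not pass without the 20 g/L array of NBRC1958 (adjusted p = 0.15, 0.097 and 0.15) or KF7 (0.10, 0.081 and 0.12).

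Of 33 tested cell wall integrity genes 6 rose (18.2%) and 3 fell (9.09%), beside 5.78% and 10.2% of all genes. GSC2, the inducible glucan synthase, had 1017, 1161 and 683 at 60 g/L, against 526, 555 and 207 at 20 g/L, and rose by 1.21 (adjusted p = 0.0083) with any 1 array left out. The wall stress sensor MID2 rose by 1.02, the surface protease YPS3 by 0.81 and the chitin synthase CHS1 by 0.76, and none of these passed without the 20 g/L array of NBRC1958 (adjusted p = 0.097, 0.071 and 0.064). YPS3 and MID2 also missed the threshold without the 20 g/L array of NBRC2018 (0.059 and 0.066) and MID2 without that of KF7 (0.082). The count of rises was 1, 2 and 3 without the 20 g/L array of NBRC1958, NBRC2018 or KF7, and 1 gene fell without any 60 or 20 g/L array of NBRC1958 or NBRC2018 and 5 without the 60 g/L array of KF7. None of 4 tested flocculation genes passed, and FLO9, read by a shared probe set, was at -0.48 (adjusted p = 0.051).

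Genes of cell separation and growth fell. Of 30 tested cell cycle genes, 12 fell (40.0%, beside 10.2% of all genes) and none rose, with a median of -0.28. The daughter cell wall gene SCW11 had 82.0, 173 and 155 at 60 g/L, against 324, 488 and 289 at 20 g/L, and fell by 1.35 (SE 0.18, adjusted p = 0.0058). The cyclin gene PCL9, active like SCW11 at the end of mitosis, had 98.8, 124 and 168 at 60 g/L, against 182, 282 and 247 at 20 g/L, and fell by 0.80. Both passed with any 1 array left out and did not overlap between doses. All 60 g/L arrays lay below all 20 g/L arrays for 15.3% of all genes tested. The daughter-specific genes DSE2 (-1.14) and DSE1 (-0.90) did not pass without the 20 g/L array of NBRC1958 (adjusted p = 0.092 and 0.083) or NBRC2018 (0.079 and 0.073). The list count was 2, 3 and 5 without the 20 g/L array of NBRC1958, NBRC2018 or KF7 and 6 without the 60 g/L array of NBRC1958 or NBRC2018. Of 9 histone genes 3 fell (33.3%, beside 10.2% of all genes), HHO1 by 0.56, HTA1 by 0.47 and HHT1 by 0.45. None did without any of the same 5 arrays (adjusted p = 0.057 to 0.12).

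The machinery of protein synthesis and breakdown moved by small amounts. Of 65 tested ribosome biogenesis genes 10 fell (15.4%, beside 10.2% of all genes) and none rose. The list median was -0.22, with strain medians of 0.004, -0.13 and -0.46. With quantile normalization 6 fell and with median centring 4. MAK16, of the large subunit precursor, had 107, 150 and 158 at 60 g/L, against 186, 248 and 319 at 20 g/L, and fell by 0.78, and the RNA polymerase I subunit gene RPA43 had 154, 202 and 225 at 60 g/L, against 289, 394 and 444 at 20 g/L, and fell by 0.90. Both held with any 1 array left out, whereas the biogenesis count was 1 or 2 without any 20 g/L array or the 60 g/L array of NBRC2018 or KF7. RPA14, of the same polymerase, rose by 0.69 and was at -0.13 with the 3' to 5' ratio as a covariate. RPA14 did not pass without the 20 g/L array of any strain or the 60 g/L array of NBRC2018 (adjusted p = 0.051 to 0.072). None of 126 cytosolic ribosomal protein genes passed, their median being 0.06. Of 39 tested proteasome and ubiquitin genes 9 fell (23.1%, beside 10.2% of all genes), such as PRE1 (-0.50) and RPT4 (-0.48). RPN4, the transcription factor of proteasome genes, rose by 0.74 (2135, 1032 and 1187 at 60 g/L, against 995, 705 and 780 at 20 g/L). RPN4 had an adjusted p of 0.0505 without the 20 g/L array of NBRC1958. With quantile normalization or median centring 5 fell. None of the 9 fell without the 20 g/L array of NBRC1958 or NBRC2018, 1 did without the 20 g/L array of KF7 or the 60 g/L array of NBRC1958, and 5 or fewer without 4 other arrays. Of 68 tested mitochondrial ribosomal protein genes 8 fell (11.8%) and 2 rose (2.94%), beside 10.2% and 5.78% of all genes. MRPL17 fell by 0.57, and no more than 3 fell without any array at 60 or 20 g/L.

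The remaining lists gave few calls. Of 19 tested autophagy genes 3 rose (15.8%) and 2 fell (10.5%), beside 5.78% and 10.2% of all genes. ATG5, which joins the autophagy conjugation complex, rose by 0.90 (602, 586 and 341 at 60 g/L, against 258, 289 and 229 at 20 g/L) and passed with any 1 array left out. ATG39, a receptor for autophagy of the nucleus, rose by 1.11 and did not pass without the 60 or 20 g/L array of NBRC1958 (adjusted p = 0.053 and 0.079) or the 20 g/L array of KF7 (0.058). Of 26 ergosterol genes 2 fell (7.69%, beside 10.2% of all genes, and 1 with either other scaling), ERG24 by 0.48 and ERG12 by 0.34. Neither passed without any 20 g/L array or the 60 g/L array of NBRC1958 or NBRC2018 (adjusted p = 0.056 to 0.20). The ERG12 call was lost without any 1 of the 9 arrays (0.051 to 0.20). The fatty acid and phospholipid list and the peroxisome list had 1 fall each, FAA4 (-0.72) and PEX14 (-0.38), although 3 and 2 peroxisome genes rose with quantile normalization and median centring, and 1 of 33 respiratory chain genes, COX7, rose by 0.47. FAA4 had an adjusted p of 0.069 without the 20 g/L array of NBRC1958, PEX14 did not pass without any of 8 single arrays (0.057 to 0.20) and COX7 without any of 5 (0.072 to 0.14). ARO9, which breaks down aromatic amino acids, rose by 1.09. Only 1 of the 3 tested genes of its list had a positive difference. The list median was -0.21, with strain medians of -0.64, -1.05 and 1.56. The disulfide isomerase gene MPD1 rose by 0.80, the demethylase gene RPH1 by 0.62 and the vacuolar zinc exporter gene ZRT3 by 0.37. The tryptophan tRNA synthetase gene WRS1 fell by 0.47 and the J-domain gene SCJ1 of the endoplasmic reticulum by 0.33. These calls were lost when single arrays were left out. SCJ1 did not pass without any 1 of the 9 arrays, ZRT3 without any of 8 and ARO9 of 7. RPH1 did not pass without any of 6, MPD1 of 5 and WRS1 of 4 (adjusted p = 0.052 to 0.20 for all of these genes). All 18 haploid mating genes lay below the level filter, as did 16 of 19 meiosis genes. Among the 3 tested, the meiotic kinase gene IME2 had 276, 151 and 302 at 60 g/L, against 110, 110 and 93.2 at 20 g/L, and rose by 1.05. IME2 did not pass without the 60 or 20 g/L array of NBRC1958 (adjusted p = 0.062 and 0.084) or the 20 g/L array of KF7 (0.073).

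The dose series was then read in steps. Of the 4359 genes, 1 (0.0229%) passed at 20 against 0 g/L and 995 (22.8%) at 60 against 0 g/L, comparisons that share arrays with 60 against 20 g/L. Of the 695 genes, 583 passed at 60 against 0 g/L as well and 112 did not. Whether the step from 20 to 60 g/L differed from the step from 0 to 20 g/L was tested directly. The upper step covers more g/L than the lower, so a change in proportion to dose would also differ between the steps. In this test 2 genes (0.0459%) passed, both with the larger rise in the upper step. APJ1 had 570, 137 and 246 at 0 g/L, 811, 164 and 213 at 20 g/L and then 3781, 1086 and 2014 at 60 g/L, a difference of the steps of 2.48 (SE 0.28, adjusted p = 0.048). HXT5 had 108, 48.4 and 55.6 at 0 g/L, 119, 51.1 and 39.5 at 20 g/L and then 690, 243 and 274 at 60 g/L, a difference of 2.30 (SE 0.24, adjusted p = 0.044). At unadjusted p under 0.05 the step difference was met by 591 genes. Leaving out 1 array gave 0 genes, except 6 without the 60 g/L array of NBRC1958 and 19 without the 60 g/L array of KF7. With no level filter, with a filter at the background or at 50%, or with an offset of 64, no gene passed. AQR1 ran the other way, with 136, 401 and 105 at 0 g/L, 711, 1087 and 389 at 20 g/L and then 880, 1629 and 630 at 60 g/L, but its step difference of -1.28 did not pass (adjusted p = 0.17). PUT1 was lower at 20 g/L than at either other dose in each strain, with 218, 169 and 654 at 0 g/L, 123, 82.6 and 131 at 20 g/L and then 740, 179 and 531 at 60 g/L. Its step difference of 3.06 did not pass either (adjusted p = 0.17).

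**Figure D5:**
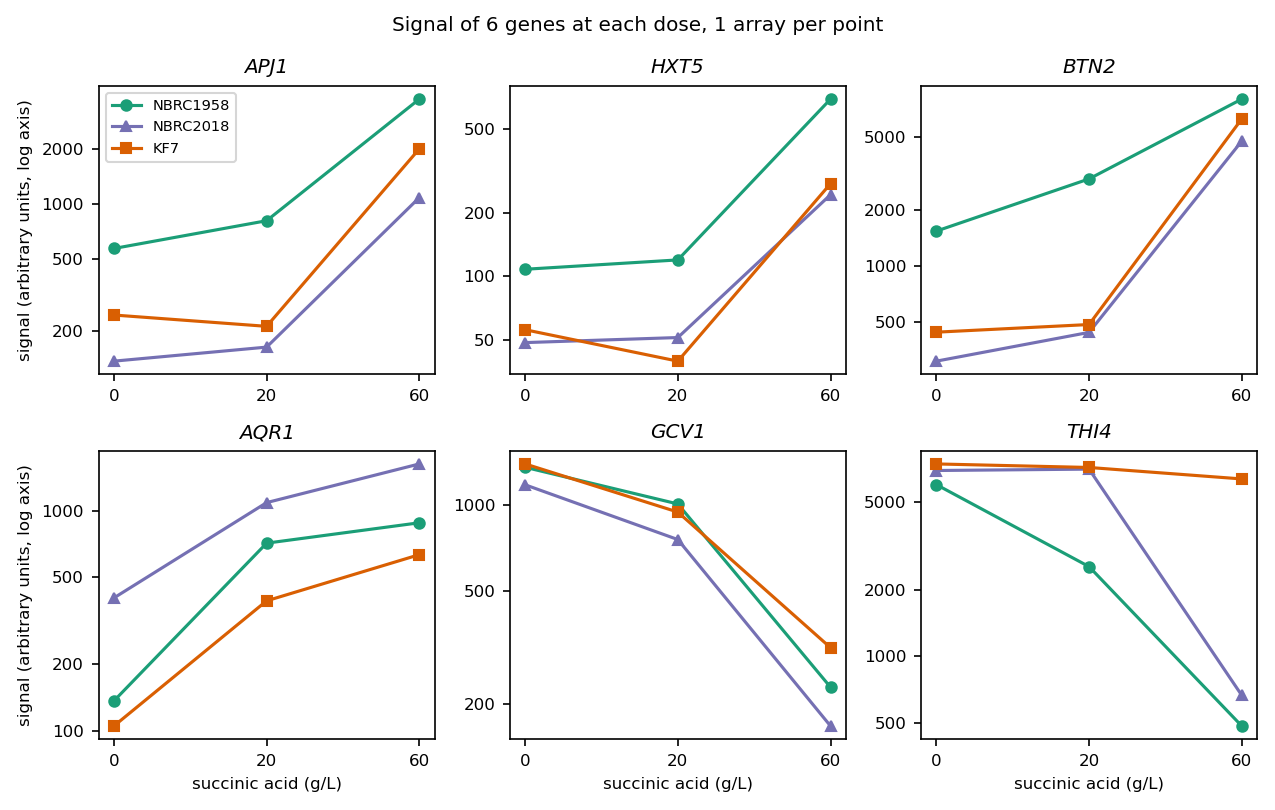
Signal (arbitrary units, log axis) of 6 genes against succinic acid (g/L), 1 array per point and 1 line per strain. APJ1, HXT5 and BTN2 climb mainly between 20 and 60 g/L, AQR1 mainly between 0 and 20 g/L, and THI4 stays near 6336 at 60 g/L in KF7 while it is 483 in NBRC1958 and 665 in NBRC2018.

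Strains differed most in the step for 6 genes, whose values are given without a test because 1 array per strain and dose leaves no error for it. YGR035C, HSP26 and THI4 are among them and are described above. HXT2, a high-affinity hexose transporter gene, had 899, 957 and 319 at 60 g/L, against 146, 984 and 960 at 20 g/L, so it was higher in NBRC1958, level in NBRC2018 and lower in KF7. THI13, of thiamine synthesis and read by a shared probe set, had 705, 284 and 6141 at 60 g/L, against 1045, 2733 and 7391 at 20 g/L. The phosphate transporter gene PHO84 had 178, 407 and 180 at 60 g/L, against 64.1, 73.3 and 268 at 20 g/L, higher in NBRC1958 and NBRC2018 and lower in KF7. Genes at least 2-fold higher and lower numbered 123 and 66 in NBRC1958, 66 and 59 in NBRC2018, and 98 and 24 in KF7.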

How the data were processed

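RNA of 3 strains at 3 doses of succinic acid was measured on 9 arrays, 1 per strain and dose. The authors deposited a table of probe set intensities on a linear scale (1.78 to 9468), and the sources used here do not say how the authors normalized them. The table was used as deposited, with no further scaling. Of 10928 probe sets, 5498 carry 1 yeast gene in a platform annotation of 2016, in which 12 symbols were updated from RefSeq. For 47 genes with several probe sets the one with the highest mean was taken. Intensities were transformed as log2(intensity + 16), and the 20% of 5449 genes with the lowest mean (under 118 units) were left out, which leaves 4359.

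The test was limma 3.58.1 in R 4.3.3 on all 9 arrays, with strain as a block and dose as a factor, Benjamini-Hochberg adjustment over the 4359 genes and a threshold of 0.05. The script was tested on simulated data. Strain names pair the arrays: deviations from the dose means correlated at 0.60 to 0.67 between arrays of the same strain. Between strains the values were -0.41 to -0.23. Centring on the dose means pushes these below 0 when the same-strain values are positive, so they are no separate support. The alternatives were other scalings, filters, offsets, variance priors and probe set rules, no block, only the 6 arrays, and leaving out each array or strain.

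The genes named are the 12 largest rises and 12 largest falls past the test, up to 4 members of each of 49 lists (the largest differences past the test, or up to 2 with the smallest p where none passed), the genes of a fixed set, those of the step difference, and the 6 with the widest range between strains. Another 14 genes were named after their values were seen. The comparison, members and lists were chosen with earlier results of these data known. A shared probe set is one whose name marks probes that also match other genes, and such values can mix relatives. No genome was used, and no sequences are shown.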

Additional observations from a re-analysis of the deposited data

Results flagged for a closer look

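Among the genes named here, 3 had marked differences in opposite directions between strains at 60 against 20 g/L. The other tested genes were not searched for this. The difference between strains was not tested because each strain had 1 array per dose. HSP26 had log2 differences of 1.78 in NBRC1958, of -1.19 in NBRC2018 and of 1.39 in KF7, a range of 2.98 on the log2 scale. For HXT2 they were 2.49, -0.04 and -1.54, a range of 4.04, and for PHO84 1.28, 2.24 and -0.54, a range of 2.78.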

How the results depend on the processing

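The count of 695 genes at 60 against 20 g/L was 458 with 50% of genes left out, 4 with no replicate block, 373 with the replicate block on only the 6 arrays, and 0 (287 at an unadjusted p under 0.05, limma) with the 3' to 5' ratio as a covariate. Leaving out an array gave 128 to 714 genes, and leaving out a strain 55 (NBRC1958), 79 (NBRC2018) and 324 (KF7). Other alternatives gave 615 to 817. The strain names pair the arrays, so the fit without the block counts differences between strains as error. The step difference gave 2 genes, 3 with quantile normalization, 0 without the filter, with 50% of genes left out, with the filter at the background, with an offset of 64, with no replicate block and with the covariate, 1 with an offset of 1, and 0 to 19 when an array or strain was left out. Of 133 named genes past the test, the covariate turned the sign of 15 and no other alternative turned any. Of 32 named genes not past it, 8 changed sign with the covariate and 6 (FUM1, GCN4, HXT2, JEN1, SDH1 and SDH2) under other alternatives. The 15 were YGR035C -0.32, THI22 0.46, SNZ3 0.53, THI73 0.54, PET18 0.68, SNO3 0.50, THI21 1.27, THI20 0.15, GCV2 0.13, GSH2 0.011, MPC3 -0.21, LEU1 -0.22, MET3 0.33, MET6 0.041 and RPA14 -0.13. The cause was not tested. Of 133 named genes past the test, 46 passed with any 1 array left out. Signals near the background of 15.1 units limit low genes.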

Other observations

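Several genes outside the lists changed, and all were named after their values were seen. The vacuolar autophagy gene ATG41 had 2608, 1243 and 842 at 60 g/L, against 415, 311 and 294 at 20 g/L, and rose by 2.01. PRM10 had 903, 373 and 432 at 60 g/L, against 232, 116 and 75.9 at 20 g/L, and rose by 1.91. ZPR1, a chaperone of the translation elongation factor eEF1A, had 4528, 2103 and 3617 at 60 g/L, against 1931, 477 and 888 at 20 g/L, and rose by 1.78, and CSR2 rose by 1.83. For these 4 genes each 60 g/L array lay above all 20 g/L arrays, as for 6.88% of all genes tested. IRA2, a brake on the Ras proteins of glucose signalling, had 1441, 1257 and 1022 at 60 g/L, against 653, 772 and 618 at 20 g/L, and rose by 0.84 without overlap. ATG41, PRM10, CSR2, ZPR1 and IRA2 passed with any 1 array left out.

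Some genes outside the lists fell. Of the IZH family, membrane proteins linked to zinc and sterols, IZH1 fell by 0.72, IZH2 by 0.64 and IZH4 by 1.14. IZH4 did not pass without any 20 g/L array (adjusted p = 0.083 to 0.10), and IZH2 did not without any 20 g/L array or the 60 g/L array of NBRC1958 or NBRC2018 (0.056 to 0.091). BNA1, of the kynurenine route from tryptophan to NAD, fell by 1.22 and BNA7 by 0.66. BNA1 had an adjusted p of 0.062 without the 20 g/L array of NBRC1958.

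Some genes under the level filter had larger differences than most tested ones. In a fit without the filter POT1, the thiolase of peroxisomal fatty acid breakdown, had 525, 38.1 and 346 at 60 g/L, against 43.5, 19.4 and 29.0 at 20 g/L (difference 2.27, adjusted p = 0.025). NBRC2018 stayed low at both doses. IRC15 had 418, 151 and 161 at 60 g/L, against 101, 35.5 and 27.3 at 20 g/L, and rose by 1.87 (adjusted p = 0.0018) without overlap. SPG4, a stationary phase gene, rose by 1.88 and the peroxisomal catalase gene CTA1 by 1.20. Of 3470 probe sets with no gene name here, 161 lay above the filter level, of which 3 had a signal at least 2-fold higher in all strains and 1 a signal at least 2-fold lower.

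Falls were most frequent among genes of intermediate length. In 4 groups of nearly equal size by coding length in the reference annotation, short to long, 68, 178, 149 and 48 genes fell and 81, 40, 54 and 77 rose, of 1097, 1083, 1094 and 1085 genes tested. Median differences were -0.02, -0.14, -0.12 and -0.0032. The 3' to 5' ratio of control genes was higher at 60 than at 20 g/L as well, and its part in this pattern was not tested.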
